A study of Rattus norvegicus with 6 samples.

Results

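The genes described here are 8 regulators of SREBP, the sterol regulatory element-binding protein, and of the handling of LDL cholesterol, namely Srebf1, Srebf2, Scap, Insig1, Insig2, Stard4, Mylip and Npc1. They were picked by gene symbol from a table of raw read counts for 18930 genes, where each symbol stood once, and 7 of the 8 had enough reads to be tested. The RNA came from NRK-52E, an epithelial line of rat kidney origin with the genotype given as WT. The Control group was 3 samples that received vehicle, and the STZ group was 3 samples exposed for 24 h to 10 mM streptozotocin, a DNA-alkylating agent. Control libraries held 10430924, 10902792 and 12737131 counts (replicates 1, 2 and 3), and STZ libraries 13921413, 11658253 and 15191349. The labels do not say whether replicates were separate cultures, so p-values measure only the spread between these samples, which may be technical. That spread was small, with a common coefficient of variation beyond counting noise of 3.25% in edgeR, so small changes can pass a threshold on p. Since the libraries are bulk RNA, fewer cells of a type and less RNA per cell cannot be told apart.

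SREBP-1 and SREBP-2, the products of Srebf1 and Srebf2, are made as membrane precursors in the endoplasmic reticulum, where they are bound to the escort protein Scap. When sterols are plentiful, Insig proteins hold Scap in that membrane; when sterols run low, Scap carries the precursor to the Golgi, where proteases release the transcription factor. The freed factor switches on genes of cholesterol and fatty acid synthesis and of lipoprotein uptake, Insig1 and Stard4 among them, and cholesterol taken up with LDL leaves the lysosome through Npc1.

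At an adjusted p under 0.05 (edgeR's quasi-likelihood test, adjusted by Benjamini-Hochberg over 11870 genes), 4 of the 7 tested members were lower and 1 was higher in STZ than in Control. Over all genes tested, 50.9% passed this threshold, 25.1% as lower and 25.9% as higher, so passing it was common among genes in general. By the same edgeR test, 0 of the 7 also had an absolute log2 fold change over 1, which 3.37% of all genes did, and the largest, that of Stard4, lay between -0.84 and -0.77 over 14 alternatives that included DESeq2 and limma-voom. The 7 members had a median log2 fold change of -0.18, against -0.006 for all genes tested, and with so few members nothing particular to them is read from these counts. The members differed from each other in size of change, from -0.80 for Stard4 to 0.18 for Npc1. Among markers of cell types, 3 tested fibroblast genes, Aqp1 of the proximal tubule and Cdh1 of epithelium were also lower in STZ, and the epithelial keratin Krt8 was higher. Their values stand beside the check of the cell line, and their part in the result was not tested.

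**Figure D1:**
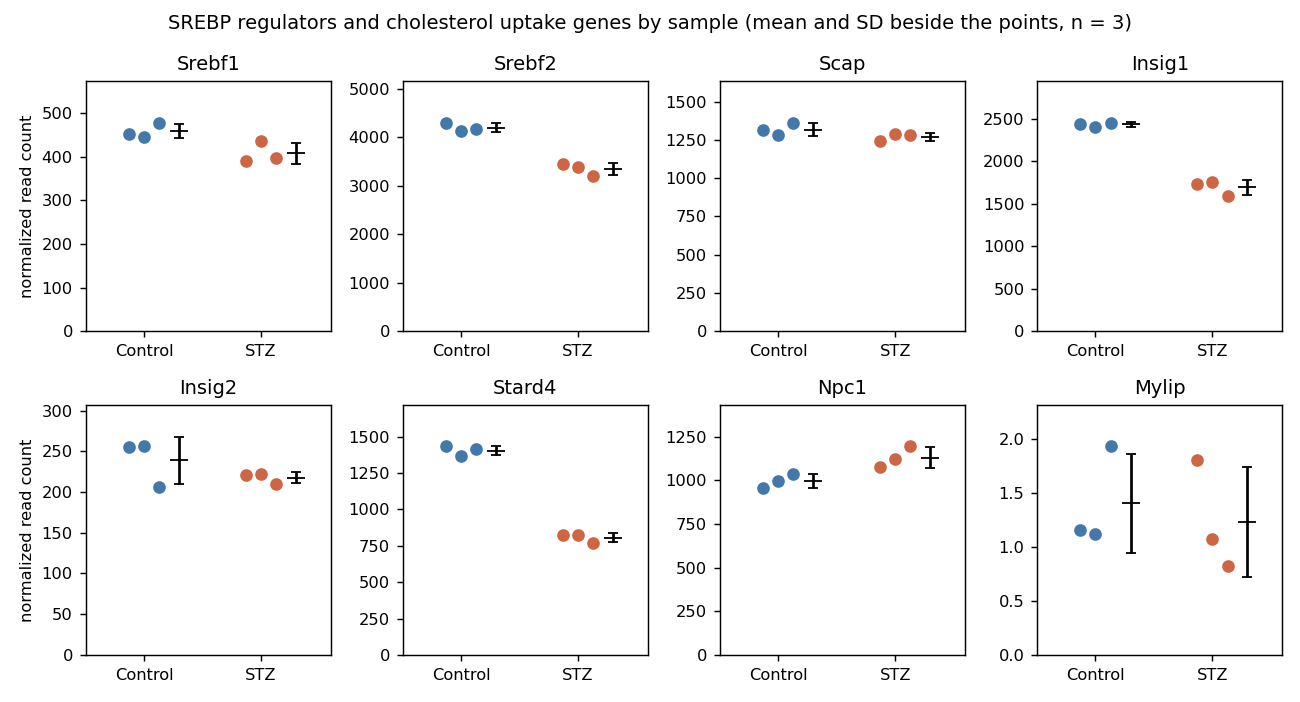
Normalized read count (vertical axis, from 0) of the 8 genes in each of 3 Control (blue) and 3 STZ (orange) samples, replicates 1 to 3 from left to right, with the group mean and SD in black. The groups stand clearly apart for Srebf2, Insig1 and Stard4 and overlap for Scap, Insig2 and Mylip, the last of which had 1 or 2 reads per sample.

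Srebf2 encodes SREBP-2, the form that mainly drives cholesterol synthesis and LDL uptake. Its normalized read counts, which are counts scaled to a common library size, were, for replicates 1, 2 and 3 in turn, 4298, 4121 and 4176 in Control and 3454, 3383 and 3198 in STZ. Every STZ sample was below every Control sample, and the gap between the groups was wider than the range within either. The mean was 4198 ± 90.5 in Control and 3345 ± 132 in STZ (SD, n = 3 each), and the log2 fold change was -0.33 (95% interval -0.41 to -0.25, standard error 0.04, adjusted p = 1.7e-09 by edgeR's quasi-likelihood test). STZ cells thus held 79.6% of the Control level. In the GRCr8 annotation the microRNA gene Mir33 lies within Srebf2, and its RNA was not analysed here.

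Srebf1 encodes the SREBP-1 isoforms, best known for fatty acid synthesis, and its count adds up the reads of all its transcripts, so SREBP-1a and SREBP-1c were not separated. Srebf1 had 453, 446 and 478 normalized counts in the Control samples and 391, 436 and 398 in the STZ samples. The groups did not overlap, but STZ replicate 2 came close to the lowest Control sample. The log2 fold change was -0.18 (standard error 0.07, 95% interval -0.31 to -0.04, adjusted p = 0.029 by edgeR's quasi-likelihood test), with lower values in 3 of 3 STZ samples. This call was lost with DESeq2's Wald test (adjusted p = 0.099). It was also lost in edgeR's test without Control replicate 3 (adjusted p = 0.12), without STZ replicate 1 (adjusted p = 0.13) and without STZ replicate 3 (adjusted p = 0.098). Over all 14 alternatives its adjusted p, from edgeR, DESeq2 or limma, lay between 0.0092 and 0.13, and its log2 fold change between -0.22 and -0.14. The span of Srebf1 overlaps that of Rai1 in the GRCr8 annotation, and Rai1 had a log2 fold change of -0.12 (SE 0.05, adjusted p = 0.028 by edgeR's quasi-likelihood test). Whether reads were counted by strand is not stated, and those of this pair may not be fully separated.

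The ratio of Srebf1 to Srebf2 reads within a library needs no scaling between libraries. It was 0.105, 0.108 and 0.114 in Control and 0.113, 0.129 and 0.124 in STZ. STZ replicate 1 fell among the Control values, and the log2 difference of 0.16 had an exact two-sided permutation p of 0.2. With 3 samples against 3 the smallest p this test can give is 0.1, so it cannot pass 0.05. A shift in the balance of the SREBP genes was therefore not detectable by this measure.

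Scap encodes the escort protein that senses sterols and moves SREBP to the Golgi. It had 1313, 1280 and 1363 normalized counts in Control and 1243, 1291 and 1281 in STZ. The groups overlapped, since STZ replicates 2 and 3 were level with Control replicate 2. The log2 fold change of -0.05 did not pass the threshold (standard error 0.05, 95% interval -0.15 to 0.04, adjusted p = 0.34 by edgeR's quasi-likelihood test). Across the 14 alternatives it lay between -0.09 (library size only) and -0.03 (without Control replicate 3, or without STZ replicate 1). Its adjusted p, from edgeR, DESeq2 or limma, lay between 0.11 and 0.67.

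Insig1 and Insig2 encode the anchors that retain Scap, and Insig1 is itself a known SREBP target gene, a feedback arm that Insig2 largely lacks. Insig1 had 2443, 2406 and 2454 normalized counts in Control and 1733, 1754 and 1592 in STZ. The Control samples lay close together, all STZ samples were far below them, and STZ replicate 3 was the lowest. The mean was 2434 ± 25.3 in Control and 1693 ± 88.1 in STZ (SD, n = 3 each), and the log2 fold change was -0.53 (95% interval -0.61 to -0.44, standard error 0.04, adjusted p = 8.1e-14 by edgeR's quasi-likelihood test). The STZ level was 69.5% of Control, and only 5.78% of tested genes had a lower log2 fold change. A long non-coding RNA gene, LOC102546740, overlaps Insig1 in the GRCr8 annotation, so some of these reads may belong to it.

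Insig2 had 255, 256 and 206 normalized counts in Control and 221, 222 and 210 in STZ. Control replicate 3 was the lowest of all 6 samples, below every STZ sample, while the other Control samples were the highest. The log2 fold change of -0.13 did not pass the threshold (standard error 0.09, 95% interval -0.32 to 0.06, adjusted p = 0.26 by edgeR's quasi-likelihood test). Without Control replicate 3 it was -0.23 and passed (adjusted p = 0.045 by the same edgeR test), and without Control replicate 1 or 2 it was -0.08 each time. Over all 14 alternatives the log2 fold change lay between -0.23 and -0.08 and the adjusted p, from edgeR, DESeq2 or limma, between 0.045 and 0.59.

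Within each library, Insig1 had 9.58, 9.39 and 11.9 reads per Insig2 read in Control and 7.85, 7.9 and 7.58 in STZ. The groups did not overlap, and the high Control value came from replicate 3, where Insig2 was low. The log2 difference of -0.40 had an exact two-sided permutation p of 0.1, the smallest the design allows. Insig1 reads per Scap read, the anchor against the protein it holds, were 1.86, 1.88 and 1.8 in Control and 1.39, 1.36 and 1.24 in STZ. These groups did not overlap either, with a log2 difference of -0.47 (exact two-sided permutation p = 0.1). Adjusted by Benjamini-Hochberg over the 3 ratios, the exact permutation p was 0.15 for each of the Insig1 ratios and 0.2 for Srebf1 to Srebf2. Reads were not divided by gene length, so a ratio compares samples and does not say which transcript was more abundant.

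**Figure D2:**
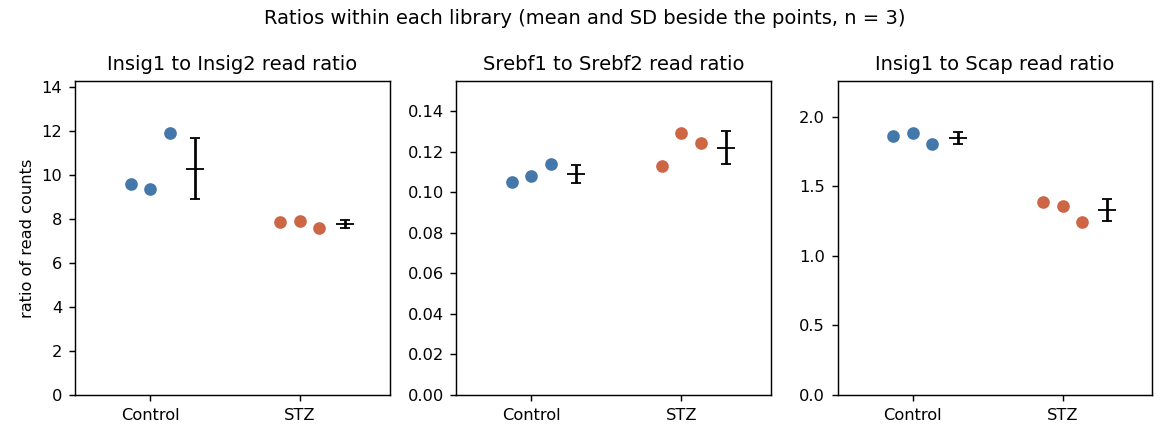
Ratio of read counts between pairs of genes within each library (vertical axis, no unit, from 0) for 3 Control (blue) and 3 STZ (orange) samples, with the mean and SD in black. Insig1 reads per Insig2 read and per Scap read were lower in every STZ sample than in every Control sample, and Srebf1 reads per Srebf2 read overlapped between the groups.

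The promoters of Srebf2 and Insig1 are shown because these SREBP regulators fell together and are textbook targets of the factor they regulate. The sequences are the 250 bases before the annotated start, from RefSeq (rat build GRCr8), of Srebf2 at chr7:115543057-115543306, plus strand, and of Insig1 at chr4:8057770-8058019, minus strand. Both read 5′ to 3′ towards the start. Capitals mark matches, on either strand, to ATCACCCCA and CACNCCAC (letters of the sterol regulatory element), to the CCAAT box, to the GC box with the letters GGGCGG, and to the E-box with the letters CACGTG.
Srebf2: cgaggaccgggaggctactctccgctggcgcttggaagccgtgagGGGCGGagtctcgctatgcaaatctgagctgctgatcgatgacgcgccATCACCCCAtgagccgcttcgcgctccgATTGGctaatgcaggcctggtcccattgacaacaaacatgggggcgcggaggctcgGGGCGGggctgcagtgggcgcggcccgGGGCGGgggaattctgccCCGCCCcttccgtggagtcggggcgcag
Insig1: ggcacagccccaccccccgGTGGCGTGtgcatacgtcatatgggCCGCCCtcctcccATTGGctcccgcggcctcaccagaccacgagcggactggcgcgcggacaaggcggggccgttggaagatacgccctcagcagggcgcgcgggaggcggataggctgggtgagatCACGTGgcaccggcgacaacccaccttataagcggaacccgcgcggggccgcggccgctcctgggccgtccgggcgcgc
In Srebf2, ATCACCCCA began 157 bases before the start, with CCAAT on the reverse strand at 129 bases and GGGCGG matches at 205, 73, 46 and 28 bases. In Insig1, CACNCCAC matched on the reverse strand at 231 bases, near GGGCGG at 206 and CCAAT at 193 bases, and CACGTG stood at 79 bases. After the start, in the stretch searched but not printed, Insig1 had a further CACNCCAC match on the reverse strand at base 14 and Srebf2 a further GGGCGG at base 26, counting the start as base 1. No capitals of different motifs overlapped in these windows. Over all 33469 promoter windows, which run from 250 bases before to 50 after a start, ATCACCCCA was in 0.245%, CACNCCAC in 5.8%, CCAAT in 37.5%, GGGCGG in 33.1% and CACGTG in 6.42%. ATCACCCCA was added to the search after the Srebf2 sequence had been seen, so its presence there is a description only. Of the 8 members 7 were matched to promoters (Stard4 was not), and neither sterol element motif was found in the windows of Srebf1, Scap, Insig2, Mylip or Npc1. In 16 windows of sterol synthesis enzymes, CCAAT was found in 13, GGGCGG in 14, CACNCCAC in 2, CACGTG in 1 and ATCACCCCA in 0. In 16 windows of fatty acid synthesis genes the counts were 12, 10, 3, 1 and 0, in the same order. In 14 windows of SREBP transport, cleavage and turnover genes they were 6, 8, 2, 2 and 0. A match shows letters in a window and not a bound site, and a missing match says only that these letters are not there.

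Stard4 encodes a soluble carrier that moves cholesterol between membranes, including to the endoplasmic reticulum where Scap senses it. It had 1433, 1367 and 1414 normalized counts in Control and 827, 821 and 770 in STZ. Every STZ sample was far below every Control sample, and STZ replicate 3 was again the lowest. The mean was 1405 ± 34.2 in Control and 806 ± 31.4 in STZ (SD, n = 3 each), and the log2 fold change was -0.80 (95% interval -0.90 to -0.70, standard error 0.05, adjusted p = 6.6e-18 by edgeR's quasi-likelihood test). This was the largest change of the 7 tested members, with the STZ level at 57.3% of Control and 2.06% of tested genes having a lower log2 fold change.

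Npc1 encodes the membrane protein that exports LDL-derived cholesterol from the late endosome and lysosome, and it was the 1 member that rose. It had 959, 996 and 1037 normalized counts in Control and 1075, 1122 and 1195 in STZ. The groups did not overlap, but the lowest STZ sample was close to the highest Control sample. The log2 fold change was 0.18 (standard error 0.05, 95% interval 0.08 to 0.28, adjusted p = 0.0027 by edgeR's quasi-likelihood test), or 113% of the Control level, and 74.2% of tested genes had a lower value. In edgeR's glmTreat test against a fold change of 1.2, 0 members were higher, so the Npc1 call was lost there. STZ replicate 3, the deepest library, had the lowest STZ value for Srebf2, Insig1 and Stard4 and the highest for Npc1. In the GRCr8 annotation Npc1 overlaps Rmc1 and the pseudogene Aktip-ps1. Rmc1 had a log2 fold change of 0.13 that did not pass the threshold (standard error 0.06, adjusted p = 0.072 by edgeR's quasi-likelihood test), and reads of these genes may not be fully separated.

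Mylip encodes the ubiquitin ligase, also called Idol, that sends lipoprotein receptors to degradation. It had 1, 1 and 2 reads in Control and 2, 1 and 1 in STZ. All these counts are under a floor of 3 reads, so no fold change is given, and a difference in Mylip was not detectable at this depth.

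**Figure D3:**
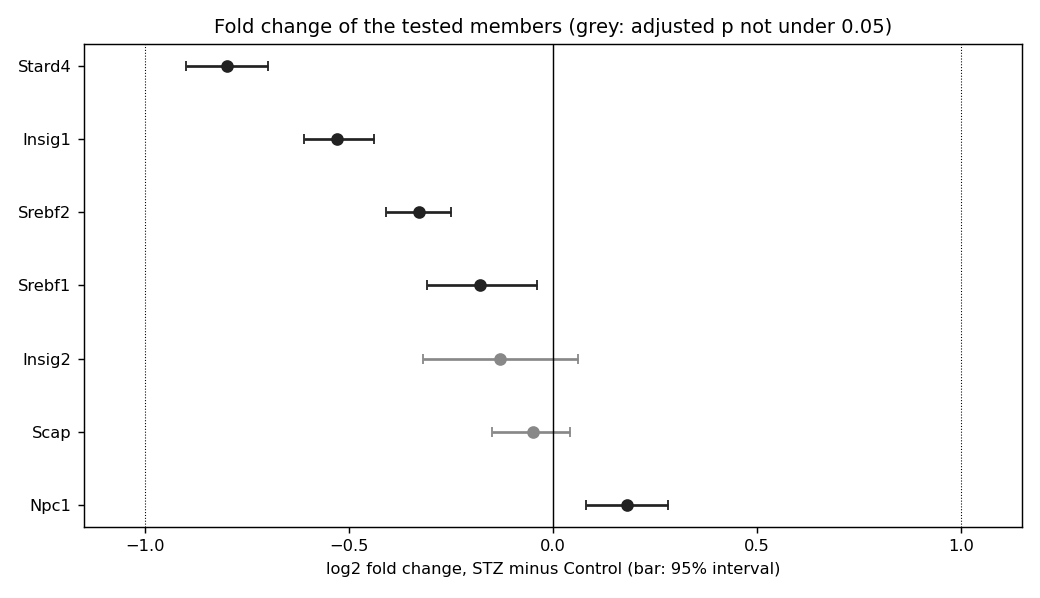
Log2 fold change of STZ against Control (horizontal axis) for the 7 tested genes, with 95% intervals as bars, black where the adjusted p was under 0.05 and grey where it was not. Dotted lines mark a log2 fold change of 1 in either direction, and no interval reaches them, that of Stard4 coming nearest at -0.90.

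The genes whose values over the 6 samples lay nearest to each member, among 9879 genes compared, were found from the root mean square difference of log2 normalized counts after the Control mean was taken off. Nearness by this measure depends largely on a similar log2 fold change, and shared regulation was not tested. For Stard4, with a log2 fold change of -0.80, the nearest were Nsdhl, an enzyme of cholesterol synthesis, and Cfap20dc. Nsdhl had a difference of 0.031 and a log2 fold change of -0.79, and Cfap20dc 0.042 and -0.85. Insig1 lay nearest to Sbf2 (0.023) and Col16a1 (0.029), and Srebf2 to Llgl1 (0.020) and Per3 (0.021). The nearest genes were Pygo2 and Dbn1 for Srebf1, Dctn1 and Ppp6r2 for Scap, Cyb561a3 and Use1 for Insig2, and Mrps30 and Ubap2 for Npc1, with differences between 0.013 and 0.036.

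Around the members stand genes that carry SREBP from the endoplasmic reticulum, cut it or control its turnover. Of 21 tested, 8 were higher and 4 lower at an adjusted p under 0.05 (edgeR's quasi-likelihood test), and their median log2 fold change was 0.02. Mbtps1, the site-1 protease that makes the first cut in SREBP, had a log2 fold change of -0.29 (standard error 0.04), and Erlin1, a membrane protein that binds the Scap and Insig complex, one of -0.47 (standard error 0.05). Fbxw7, which directs the nuclear form of SREBP to degradation, rose by 0.71 (standard error 0.11) on the log2 scale. Of the 21, 9 did not pass, and since 25.9% of all genes tested were higher and 25.1% lower, these counts are read as no result about the list.

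Among enzymes of sterol synthesis, 18 of 18 tested were lower at an adjusted p under 0.05 (edgeR's quasi-likelihood test), with a median log2 fold change of -0.81, and 7 of them had a log2 fold change under -1. Over all 11870 genes tested, 25.1% were lower. With an absolute log2 fold change over 1 also required, 3.37% passed in either direction, and 132 genes were lower. Mvd, which decarboxylates mevalonate diphosphate, had -1.64 (standard error 0.05) and Hmgcs1, which makes HMG-CoA, -1.03 (standard error 0.04). The fall of Stard4 lay in the middle of these enzymes, with 9 falling further and 9 less. Insig1 fell less than 13 of the 18, and Srebf2 less than all 18. STZ replicate 3 held the lowest STZ value of 11 of the 18 enzymes, as it did for Srebf2, Insig1 and Stard4. The mean log2 level of the enzymes relative to Control was -0.79, -0.81 and -0.88 in STZ replicates 1, 2 and 3.

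Genes of fatty acid synthesis, the programme linked above all to Srebf1, fell in 14 of 15 cases and rose in 1 at the same edgeR threshold, with a median log2 fold change of -0.70 against -0.18 for Srebf1 itself and beside 25.1% lower and 25.9% higher over all genes tested. Fads1, a fatty acid desaturase, had -1.05 (standard error 0.04), and Acly, which supplies acetyl-CoA, had -0.78 (standard error 0.04). The gene that rose was Me1, the NADPH-producing malic enzyme, with 0.21 (standard error 0.04).

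**Figure D4:**
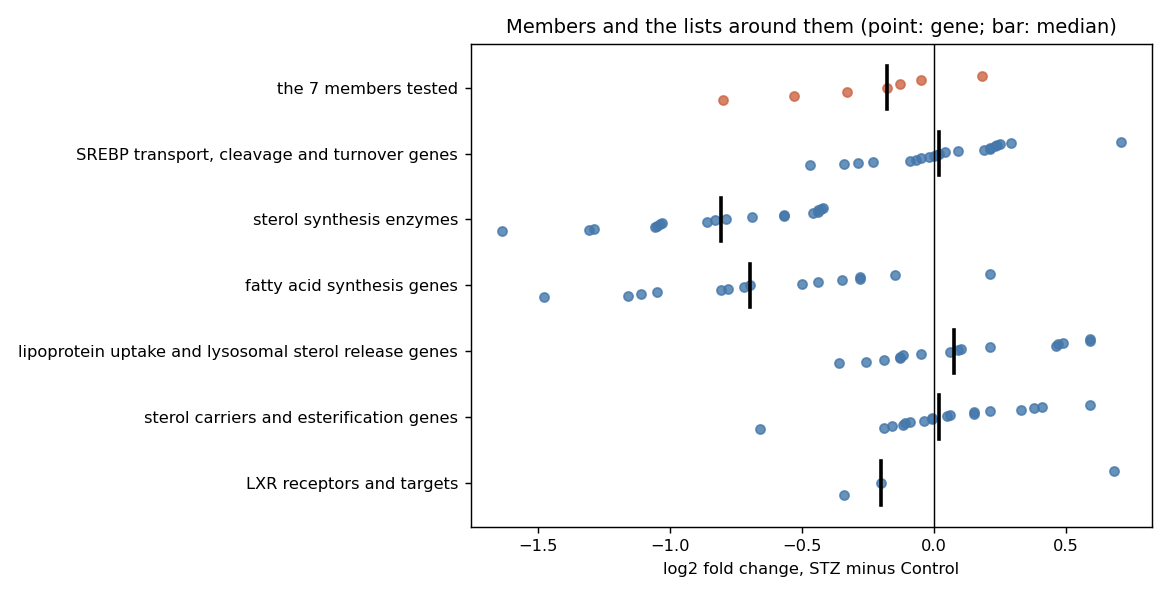
Log2 fold change of STZ against Control (horizontal axis) for each tested gene (points), with 1 line for the 7 members (orange) and 1 for each of 6 lists of related genes (blue); black bars are medians. Sterol synthesis enzymes lie wholly below 0, around a median of -0.81, and each of the other 5 lists has genes on both sides of 0, that of fatty acid synthesis with 1 gene, Me1, above it.

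Npc1 was set beside genes of lipoprotein uptake and release of cholesterol from the lysosome. Of 16 tested, 6 were higher and 5 lower at an adjusted p under 0.05 (edgeR's quasi-likelihood test), with a median log2 fold change of 0.07. With 25.9% of all genes tested higher and 25.1% lower, nothing particular to this list is read from its counts. Npc2, the soluble protein that hands cholesterol to Npc1, rose by 0.59 (standard error 0.04) on the log2 scale, and the lysosomal membrane protein Lamp1 by 0.49 (standard error 0.03). Lipa, the lysosomal lipase that frees cholesterol from its esters, had a log2 fold change of -0.36 (standard error 0.05), and Snx17, a sorting nexin of receptor recycling, one of -0.19 (standard error 0.05). Npc1 and Npc2 thus rose, as Lamp1 did, and Lipa fell, and a relation between these changes was not tested.

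Stard4 was set beside other sterol carriers and esterification genes, of which 5 of 18 tested were higher and 3 lower at the same edgeR threshold, with a median log2 fold change of 0.02. These counts too are near the background of 25.9% higher and 25.1% lower over all genes tested. Tmem97, a sterol-binding partner of Npc1, had the lowest log2 fold change of this list, -0.66 (standard error 0.05), and Vapb, an anchor for lipid transfer proteins, had -0.19 (standard error 0.04). Soat1, which esterifies cholesterol, rose by 0.33 (standard error 0.04) and the oxysterol-binding family member Osbpl2 by 0.38 (standard error 0.05) on the log2 scale. Tmem97, which lay closest to Stard4, fell less than it did.

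Mylip is a known target of the liver X receptors, and 3 of their genes could be tested. Abca1, which exports cholesterol, rose by 0.68 (standard error 0.09) on the log2 scale. Lpcat3, a phospholipid acyltransferase, had a log2 fold change of -0.34 (standard error 0.04), and the receptor gene Nr1h2 one of -0.20 (standard error 0.06). At an adjusted p under 0.05 in edgeR's test, 1 of the 3 was higher and 2 were lower, or 1 lower without Control replicate 2 and 1 without STZ replicate 3. With 25.9% of all genes tested higher and 25.1% lower, nothing is read from so few genes, whose median log2 fold change was -0.20. With no filter the median of this list was 0.21, so its sign is not stable.

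The label of a kidney epithelial line was checked against markers. Some markers looked for had no row among the counts and are left out of the numbers below. They were Krt19 and Epcam of epithelium, Hnf4a of the proximal tubule, Umod, Slc12a1 and Aqp2 of the distal nephron, and Dcn of fibroblasts. Of 4 epithelial markers, Krt8 had the most reads and rose by 0.48 (standard error 0.03) on the log2 scale, and Krt18 had at most 3 reads per sample. Cdh1, with 16 to 35 reads per sample, was lower with a log2 fold change of -0.69, and Krt7, at -0.16, was not called. Of 6 markers of the proximal tubule, Aqp1 passed the filter, with a log2 fold change of -1.25 (standard error 0.16), and the other 5 (Lrp2, Cubn, Slc34a1, Slc2a2 and Slc5a2) never exceeded 10 reads, too few to give a direction, so tubule identity is barely marked in this RNA. Summed over the 6, most of it Aqp1, these markers had 204, 192 and 122 normalized counts in Control and 84.4, 80.5 and 70.9 in STZ. Of 7 fibroblast markers, 3 passed the filter and all 3 were lower, Col3a1 with a log2 fold change of -1.35, Pdgfrb with -0.33 and Col1a1 with -0.27. Col3a1 had the most reads of this list in every Control sample and Col1a1 in every STZ sample. Their summed level over the 7 was 1372, 1256 and 1232 normalized counts in Control and 795, 825 and 694 in STZ, and Col1a2, Pdgfra, Thy1 and Lum had at most 4 reads in any sample. Markers of the distal nephron (2 of 5 had a row) and of endothelium (4) had at most 9 reads per gene and sample. Of 4 leukocyte markers Cd68 alone passed the filter, without a call. The markers tested were thus 3 of epithelium, 1 of the proximal tubule, 3 of fibroblasts and 1 of leukocytes. Of these, 5 were called lower, as Stard4, Insig1 and Srebf2 were (Aqp1, Cdh1, Col3a1, Pdgfrb and Col1a1). Krt8 was called in the opposite direction, and Krt7 and Cd68 were not called. Over all genes tested, 25.1% were lower and 25.9% higher, and with so few markers nothing is read from this count.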

How the data were processed

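The authors aligned reads with STAR 2.7.10a to the Rnor6 build of the rat genome and gave the uniquely mapped ones to featureCounts, and the values they deposited are raw counts per gene. Its strand setting is not given in the sources used here. The 6 columns were assigned to samples by their labels. From these counts, edgeR 4.0.16 in R 4.3.3 gave TMM scaling, the filterByExpr filter (11870 of 18930 genes kept), the quasi-likelihood test and Benjamini-Hochberg adjustment over all genes kept. Normalized counts were counts divided by the scaled library size and multiplied by the geometric mean of these sizes. The steps were tested on simulated data, where recovery was required only of genes with a mean of at least 50 counts, a limit set after a requirement over all genes was not met; changes of genes with fewer reads may be missed, and calls on them, such as Cdh1, lie outside that requirement. The alternatives were other scalings (library size only, upper quartile, DESeq2 size factors), other filters (none, at least 10 counts summed), DESeq2 1.42.0, limma-voom (limma 3.58.1), glmTreat against a fold change of 1.2, an added threshold on the fold change, a block for the replicate number, and leaving out each sample in turn.

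The members and lists were chosen with earlier results of these data known. The genes named are the 8 members, the 2 rising and 2 falling genes of smallest p in each list, the 2 genes nearest to each member with a mean of at least 50 normalized counts, the cell type markers, and genes overlapping a member (Rai1, Rmc1), which were added later. Overlaps came from the GRCr8 annotation, and no gene coordinates are given from it because the reads were aligned to another build; the promoter sequences are those of GRCr8. Exon lengths were not used here, so levels per length were not compared between genes, and the marker with the most reads of a list is named by reads alone. Some genes of this pathway, among them 1 that this rule names, are not reported here, though they may enter the counts.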

Additional observations from a re-analysis of the deposited data

How the results depend on the processing

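Over the members, 93 of 98 refitted log2 fold changes had the same sign and the same call as those reported. The exceptions were the 4 losses for Srebf1 and the 1 gain for Insig2 given with those genes, and their cause was not tested. These refits, 14 per member, left out glmTreat and the added threshold on the fold change, which are given below as counts. Stricter criteria can only lower a count or leave it as it was. With glmTreat against a fold change of 1.2, 1091 genes were higher and 862 lower over all genes, and 0 members were higher and 2 lower. In that test the counts stayed at 18 lower for sterol enzymes and 1 higher for LXR genes and fell to 10 lower for fatty acid synthesis and 4 higher for uptake. They were also 1 higher and 1 lower for SREBP transport, cleavage and turnover, 0 higher for fatty acid synthesis, 1 lower for uptake and lysosomal release, 1 higher and 1 lower for sterol carriers, and 0 lower for LXR genes. With an absolute log2 fold change over 1 also required, 268 genes were higher and 132 lower over all genes, 7 sterol enzymes and 4 fatty acid genes were lower and 0 fatty acid genes higher, and 0 passed in either direction among the members, the transport, uptake and carrier lists and the LXR genes. With 1 sample left out, the number of LXR genes lower was 1 to 2. Of 84 refitted list medians (glmTreat left out, since it keeps the fold changes), 66 moved by less than the spread between replicates. The median of the transport list was -0.02 and that of the carriers -0.01 with library size only, and that of the LXR genes, reported as -0.20, was 0.21 with no filter. With 1 sample left out, the medians were -0.01 (without Control replicate 2) to 0.04 for transport, -0.02 (without Control replicate 2) to 0.04 for the carriers, 0.03 (without Control replicate 3) to 0.09 for uptake and -0.28 to -0.15 for LXR genes, so the first 2 have no stable sign. Control and STZ share replicate numbers, but deviations of same-numbered samples from their group means had correlations of 0.0332, -0.038 and 0.102 across 10330 genes, so the numbers were not taken to pair the samples. With the replicate block, 3139 genes were higher and 3060 lower, and among the members 1 was higher and 4 lower. The block changed no call of a member. Depth limits Mylip above all, at 1 or 2 reads per sample.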
